A study of Morus alba with 35 samples.

Results

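In suspension cultures of white mulberry (Morus alba), 62 of 31401 annotated genes lost most of their transcript in control cells by 72 h and ended near their starting level in cells given 2 elicitors. The genes were chosen on CPM (a gene's count over the library's total count, times 1000000). The mean of the 0.5 h controls had to be at least 10 CPM, the 72 h control mean lower by at least 5-fold, and the 72 h elicited mean within 1.5-fold of the 0.5 h elicited mean. At 0.5 h the log2 ratio of elicited to control CPM, with 1 added to each, had to lie between -0.5 and 0.5, and the 12 h control mean had to stay below 2-fold of the 0.5 h mean. Of the 31401 genes, 10826 passed the level at 0.5 h, 8182 passed all conditions at 0.5 and 12 h, and 560 of these fell by at least 5-fold in controls. The 62 genes kept in elicited cells were 11.1% of the 560 (Wilson 95% interval 8.73 to 13.9%). Wilson intervals here and below treat genes as independent draws and leave out the spread between libraries and the choice of limits. In elicited cells 470 others ended lower by more than 1.5-fold, and 28 ended higher by more than 1.5-fold. The 470 are called lost in both treatments below, although the least loss was 5-fold in controls and only 1.5-fold in elicited cells.

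All cells were suspensions grown from calli, labelled as stem, kept in the dark at 25 °C and moved at the start from a suspension 14 days old into fresh medium, each flask holding 32 g of medium and 8 g of cells. Elicited flasks received 50 mM methylated beta-cyclodextrin (MBCD) and 100 µM methyl jasmonate (MeJA), and control flasks the ethanol carrier alone (2.1 µL per mL), which the elicited flasks also contained. Control cells had 2 libraries at each of 0.5, 6, 12, 24, 48 and 72 h, while elicited cells had 3 for both early times (0.5 and 6 h) and 4 for each of the others. Both elicitors were given together in every elicited flask used here, so their separate effects cannot be told apart. The 34 libraries held 17191217 to 18897243 counts. Replicates were separate flasks per the labels. No source used here says whether these flasks shared a parent suspension, and p-values describe the spread between flasks.

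Methyl jasmonate is the volatile ester of jasmonic acid, a hormone through which plants switch from growth to defence and to making specialised metabolites. Cyclodextrins are rings of sugar units with a hydrophobic cavity, and in plant cell cultures they are used to elicit stilbenes and to take them up from the cells into the medium. After transfer to fresh medium, suspended plant cells commonly pass from a lag into division and later into a stationary phase, and many transcripts change along that course without any elicitor. The deposited table pairs its gene identifiers with no names, products or sequences, so what the 62 genes encode is not stated here, and the labelled tissue could not be set against marker genes.

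The values that chose the 62 genes are given as a description. In the 0.5 h controls their means ran from 11.1 to 908 CPM, with a median of 48.1 CPM, and per kilobase of exon from 6.52 to 577 CPM with a median of 32.9. In the 72 h controls they ran from 0.0844 to 132 CPM with a median of 5.18 CPM. The median loss was 8.05-fold, with quartiles of 5.63- and 15.7-fold. The greatest loss was that of a single-exon gene on chromosome 2 (8580040 to 8581906), which held 506 counts in the 0.5 h controls and 3 counts in the 72 h controls, a ratio of 170 with an exact 95% counting interval of 58 to 829. In elicited cells the 72 h mean was between 0.674- and 1.48-fold of the 0.5 h mean. Many genes sat near the edges of the rule: 19 of the 62 had lost 5- to 6-fold, and 20 genes that met every other condition had lost 4- to 5-fold. The values nearest the limit of loss were 5.03-fold inside and 4.94-fold outside.

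In control cells the loss ran mainly between 6 and 48 h. The rule did not use the 6, 24 and 48 h controls, but it capped the 12 h level and fixed a loss by 72 h. A fall between those times thus follows in part from the choice of the genes. Of the 470 genes lost in both treatments, which met the same control conditions, 86.8% fell from 6 to 48 h and 0.638% rose. From 6 to 24 h, 54 of the 62 genes fell in controls and 2 rose, and from 6 to 48 h 58 fell and none rose. Over all 20107 genes tested, 28.3% fell and 26.6% rose from 6 to 24 h, and 31.7% fell and 30% rose from 6 to 48 h. Against 6 h the 62 genes changed by a median of -1.81 log2 units by 24 h and -2.70 by 48 h, where the median over all tested genes was -0.03 for both. From 24 to 48 h 33 of the 62 fell further and none rose, against 7.49% and 6.63% of all tested genes. Called changes here and below have an adjusted p below 0.05 in an edgeR quasi-likelihood test fitted to all 34 libraries, with Benjamini-Hochberg adjustment over all tested genes. In bulk libraries a smaller share of cells with a transcript and less transcript per cell cannot be told apart. All 62 genes passed the filter on low counts.

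The order of the loss differed among the 62 genes. Set against the 0.5 h mean, which the rule used, the control mean had dropped by at least 2-fold, and stayed so, from 6 h in 5 genes, from 12 h in 16, from 24 h in 30 and from 48 h in 11. The largest drop between successive control means, in log2 units, lay between 24 and 48 h in 19 genes and between 12 and 24 h in 17. It lay between 6 and 12 h in 13, between 0.5 and 6 h in 8 and between 48 and 72 h in 5. These steps differ in length, so the largest drop need not be the fastest. At 6 h 20 genes still stood above their 0.5 h control mean. The 470 genes lost in both treatments were lower earlier: 226 of them (48.1%) had dropped by at least 2-fold from 6 h and 180 (38.3%) from 12 h, against 8.06% and 25.8% of the 62. No test was made between these 2 sets, which the rule divided by their elicited levels.

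Summed over the 62 genes, the control libraries held 5359 and 6111 CPM at 6 h, 2123 and 2035 CPM at 24 h, and 850 and 1145 CPM at 48 h. The elicited libraries held 6099, 7146 and 7618 CPM at 6 h, 5301, 5781, 5538 and 5124 CPM at 24 h, and 6292, 6571, 5531 and 5977 CPM at 48 h. The sums of the 2 treatments lay next to each other at 6 h and were well apart at 24 and 48 h. The median log2 level of the 62 genes, taken in each library against the mean of the 6 h controls, was -1.79 ± 0.02 at 24 h and -2.75 ± 0.35 at 48 h in controls (SD, n = 2 each). In elicited cells it was 0.32 ± 0.09 at 6 h (SD, n = 3), 0.12 ± 0.16 at 24 h and 0.41 ± 0.14 at 48 h (SD, n = 4 each). The 2 controls of 48 h differed more than those of 24 h: replicate 1 was the lower for 42 of the 62 genes, with a median ratio of 0.778 to replicate 2.

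**Figure D1:**
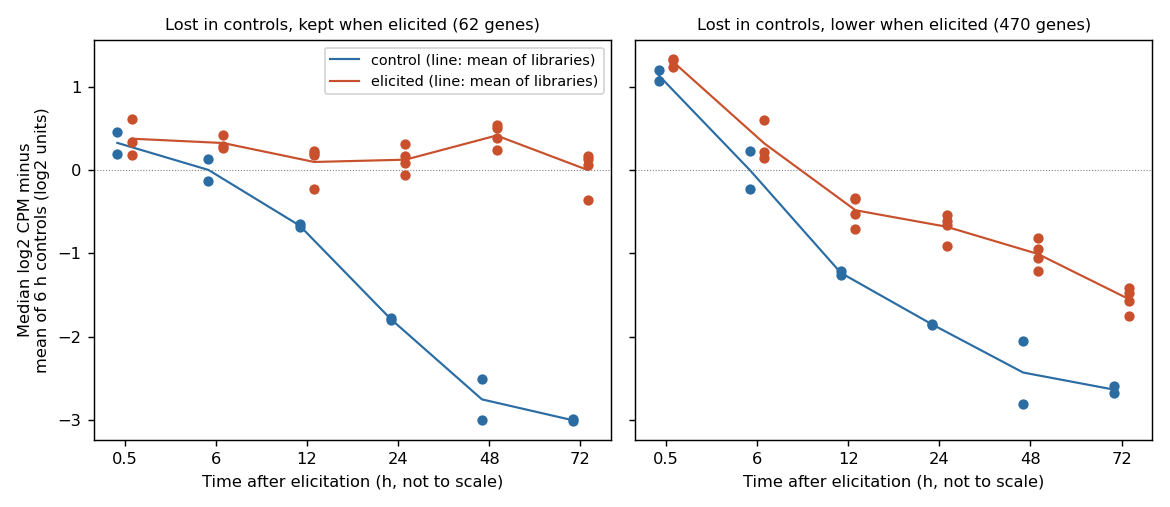
Median log2 CPM of a gene set in each library, relative to the mean of the 6 h controls, against time in hours (evenly spaced, not to scale), for the 62 genes kept in elicited cells and the 470 genes lower in both treatments. Points are libraries and lines join group means; control medians of the 62 genes reach -2.75 at 48 h while the elicited ones stay near 0, at 0.41.

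The level in elicited cells was kept at the ends of the course but was not flat between them. Of the 62 genes, 45 (72.6%) changed over 6, 12, 24 and 48 h in elicited cells (edgeR F test). Such change was not particular to them: 61.2% of all tested genes and 86.4% of the 470 genes lost in both treatments changed. In 17 of the 45 genes the 48 h level was not called different from 6 h. In controls 60 of the 62 changed over 6, 24 and 48 h, against 64.8% of all tested genes. The highest of the 4 elicited means between 6 and 48 h was at the median 1.65-fold the lowest, with a range from 1.18- to 16-fold, while the corresponding ratio of the 3 control means had a median of 5.67-fold. At 6, 12, 24 and 48 h, between the times the rule fixed, 19 of the 62 genes (30.6%) stayed within 1.5-fold of their 0.5 h elicited mean and 45 (72.6%) within 2-fold. Among all 4260 of the 8182 genes whose 72 h elicited mean was within 1.5-fold of that at 0.5 h, 64.9% and 92.5% did so.

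Departures in elicited cells went both ways. Against 6 h, 17 genes were lower and 8 higher at 12 h (20.3% and 23.4% of all tested genes), and 26 were lower and 10 higher at 24 h (27% and 26.7%). Elicited 12 h replicate 4 stood apart, with a median log2 level of -0.23 where the rest of its group lay between 0.18 and 0.23. The counts at 12 h were not repeated without that library. At 48 h 15 were lower and 16 higher, against 28.5% and 29.2% of all tested genes, and 31 were not called. These shares of the 62 genes at 48 h lay close to those of all tested genes. Scaled by library size alone the split at 48 h became 12 lower and 23 higher, where 24.6% of all tested genes were lower and 32.4% higher. Of the 17 genes lower at 12 h, 9 were also lower at 48 h and 8 were no longer called. From 24 to 48 h 5 genes rose and none fell, against 2.04% and 1.48% of all tested genes.

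Setting the 2 treatments side by side gave 3 courses from 6 to 48 h. In 30 genes the controls fell and the elicited cells were not called, in 15 both fell, and in 13 the controls fell while the elicited cells rose; the other 4 were not called lower in controls. Of all tested genes 9.8%, 19.3% and 2.53% showed these combinations. The 15 genes lower in elicited cells had a median log2 change of -0.89 there and -3.23 in controls. The 16 higher in elicited cells had medians of 0.77 and -1.75, and the 31 not called had medians of 0.08 and -2.80. The genes that fell in elicited cells were thus, by their medians, those that fell furthest in controls, which is a description of these lists with no test. Without elicited 6 h replicate 1 the 16 higher genes became 10.

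**Figure D2:**
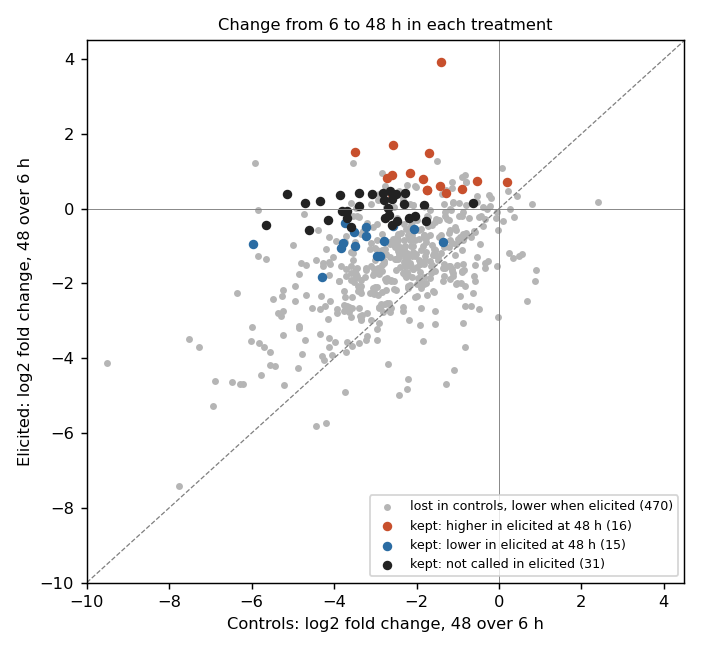
Log2 fold change from 6 to 48 h in elicited cells against the same in controls, from the edgeR fit, one point per gene, with the dashed line at equal change. The 62 kept genes are coloured by their call in elicited cells (16 higher, 15 lower, 31 not called), and the 470 genes lost in both treatments are grey; the kept genes lie above the line.

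Elicited cells had higher levels than controls of nearly all 62 genes from 24 h on. At 6 h 9 genes were called (6.24% of all tested genes), 8 of them higher and 1 lower, against 3.64% and 2.6%. The 8 became 5 without control 6 h replicate 1 or without replicate 2, where 1.69% and 1.08% of all tested genes were higher. They became 13 (4.46% of all tested genes) in a fit without elicited 12 h replicate 4 and 72 h replicate 1, the libraries that stood apart from their groups in the summed or median level of the 62 genes. At 24 h 59 were higher and none lower, against 21.7% and 17.9%, and at 48 h all 62 were higher, against 26.5%, with 25.1% of all tested genes lower. The median difference over the 62 genes was 0.33 log2 units at 6 h, then 1.83 and 3.17 at the later times, while over all tested genes it was within 0.02 of 0 each time. The 6, 24 and 48 h libraries were not used to choose the genes, but 48 h lies next to the 72 h that was. Without TMM scaling, on library sizes only, the 48 h median over all tested genes was -0.24 and over the 62 genes 2.95, and all 62 were still called, against 19% of all tested genes.

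The libraries of the 2 treatments separated in the same order, here on CPM without the TMM scaling that the calls used. At 48 h 0 of the 62 genes had every elicited library below both controls, against 39.3% of all tested genes. Every elicited library stood above both controls for all 62 genes, a pattern found for 20.7% of all tested genes. At 24 h this held for 59 of the 62 genes (20.7% of all tested genes), with 1 gene reversed (45.7% of all tested genes) and 2 overlapping. At 6 h it held for 22 genes (12.3% of all tested genes), 6 were reversed (21.8%) and 34 overlapped. At 0.5 and 72 h, which the rule used, none and all 62 genes were called higher, with 2.34% and 22.3% of all tested genes higher (1.64% and 21.8% lower), and nothing is read from those counts. At 12 h, where the rule capped the control level, 40 genes were called higher and none lower, against 12.8% and 10.2% of all tested genes, and nothing is read from that count either.

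The difference between treatments grew with time, which follows in part from the choice of the genes. The rule held the difference near 0 at 0.5 h and, by its conditions at 72 h, made it large there. It was greater at 48 h than at 6 h for 59 of the 62 genes and smaller for none, where 17.5% of all tested genes had a greater and 13.7% a smaller difference (edgeR test of the interaction). Already at 24 h it was greater than at 6 h for 47 genes and smaller for none, against 10.2% and 6.94% of all tested genes. The median increase from 6 to 48 h was 2.82 log2 units. The 3 genes for which growth was not shown were Mal_HE_154X_1_chr007g008270, described below, and 2 picked out after their values were seen. These were a gene of 4 exons on chromosome 12 (1657941 to 1664833) and a single-exon gene on chromosome 13 (14879639 to 14881118), with increases of 0.51 and 0.78 log2 units (adjusted p = 0.294 and 0.262, edgeR).

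**Figure D3:**
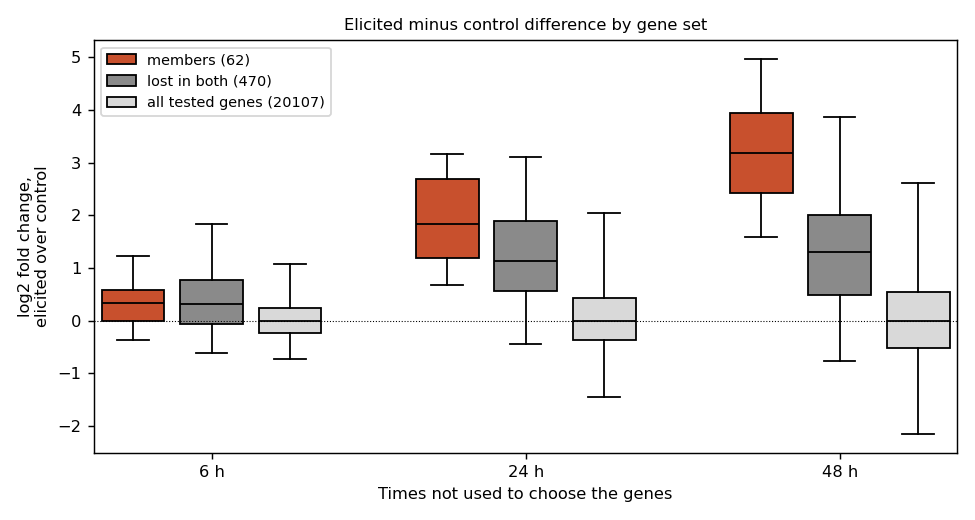
Log2 fold change of elicited over control cells at 6, 24 and 48 h for the 62 kept genes, the 470 genes lost in both treatments and all 20107 tested genes. Boxes span the quartiles with the median as a line, and whiskers reach the 5th and 95th percentiles; the medians of the 62 genes are 0.33, 1.83 and 3.17.

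Set beside the 470 genes lost in both treatments, the kept genes had a like median difference at 6 h and a higher one at 24 and 48 h. At 6 h the median difference between elicited and control cells was 0.33 log2 units in the 62 genes and 0.32 in the 470. At 24 h it was 1.83 and 1.14, and at 48 h 3.17 and 1.30. Of the 470, 301 (64%) were higher in elicited cells at 24 h and 301 at 48 h. Controls fell from 6 to 48 h by a median of -2.70 log2 units in the 62 and -2.32 in the 470, whereas elicited cells changed by 0.09 and -1.48. Since the rule divided these sets by the elicited level at 72 h, a difference late in the elicited course follows in part from the choice, and no test was made between them. In the 28 genes that ended higher in elicited cells, the median difference was 2.92 at 24 h, and all 28 were called higher there and at 48 h.

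**Figure D4:**
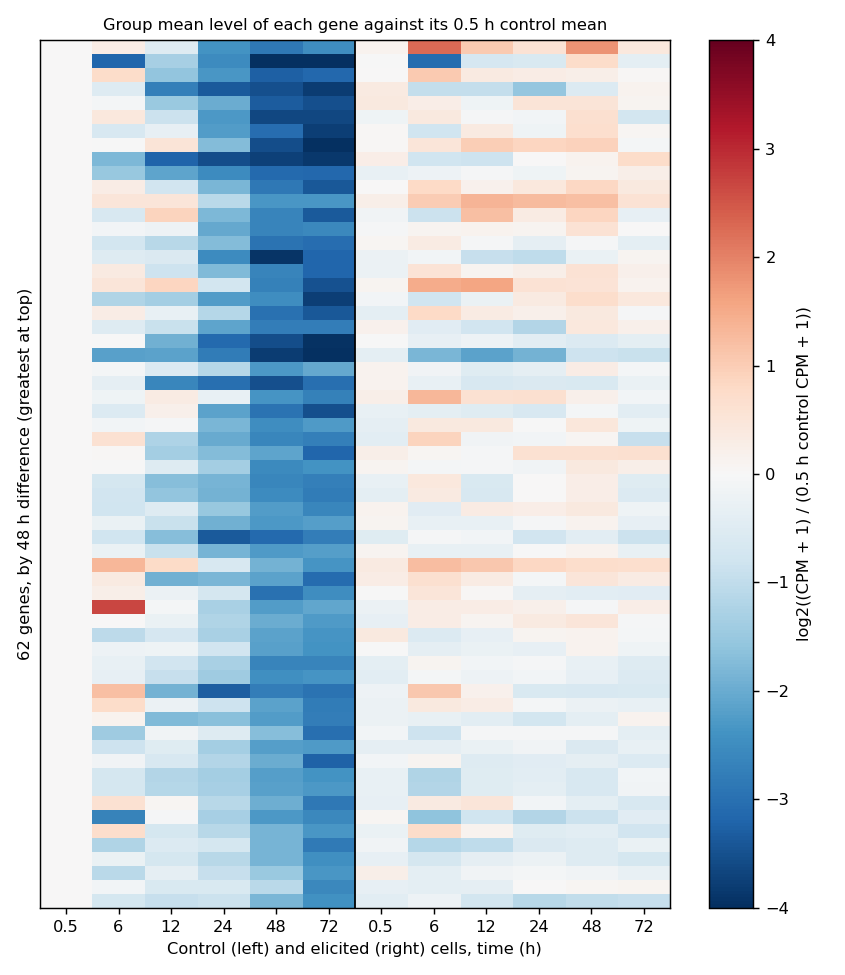
Group mean level of each of the 62 genes (rows, ordered by the 48 h difference with the greatest at the top) in the 12 groups, as log2 of CPM + 1 over the 0.5 h control mean of CPM + 1; blue is lower and red higher. The left columns (controls) turn blue from 12 to 24 h on, while the right columns (elicited) stay pale apart from departures in single genes.

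Among genes called at 48 h and sharing no exon bases with another gene, the 2 with the highest and the 2 with the lowest difference at 48 h are given in full. Their 48 h values picked them, so their p-values that involve 48 h are not independent of that choice. The highest was Mal_HE_154X_1_chr012g010420, with 4 exons and 1110 exon bases on chromosome 12 (11557980 to 11561040, minus strand). In controls it had 16.5 and 11.4 CPM at 6 h, 1.62 and 0.996 CPM at 24 h, and 1.03 and 0.318 CPM at 48 h. In elicited cells it had 65.3, 54.1 and 52.1 CPM at 6 h, 18.1, 27.2, 17.7 and 5.62 CPM at 24 h, and 54.4, 56.4, 16.3 and 37.7 CPM at 48 h. The treatments did not overlap at any of these times, and the elicited level dipped at 24 h. Elicited over control, the log2 fold change was 2.13 (SE 0.52, adjusted p = 0.013) at 6 h, 3.95 (SE 0.66) at 24 h and 6.16 (SE 0.73, adjusted p = 5.17e-08) at 48 h by edgeR. The difference was greater at 48 h than at 6 h (adjusted p = 0.000706, edgeR), and within elicited cells 24 h was below 6 h by a log2 change of -1.84 (adjusted p = 0.000351, edgeR). At 0.5 h it had stood at 11.1 CPM in controls and 12.4 CPM in elicited cells.

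The second was Mal_HE_154X_1_chr013g003630, with 4 exons and 1236 exon bases on chromosome 13 (3538010 to 3540494, minus strand), whose level dropped at 6 h in both treatments. It had 6 and 6.33 CPM in the 6 h controls and 7.93, 5.33 and 6.79 CPM in the 6 h elicited cells, from 0.5 h means of 63.5 and 63.3 CPM. At 24 h controls had 9.71 and 10.7 CPM and elicited cells 51.7, 63.9, 25.2 and 23.6 CPM. At 48 h controls had 3.47 and 2.06 CPM and elicited cells 115, 143, 62.5 and 108 CPM. The groups overlapped at 6 h and were apart at 24 and 48 h. Between treatments the difference was 0.20 log2 units at 6 h (adjusted p = 0.902), 2.26 at 24 h (SE 0.56, adjusted p = 0.00194) and 5.51 at 48 h (SE 0.69, adjusted p = 1.18e-07, edgeR). In elicited cells it was higher at 48 h than at 6 h by 3.91 log2 units (SE 0.51, adjusted p = 3.04e-07, edgeR), and in controls the change of -1.41 was not called (adjusted p = 0.0922, edgeR). In elicited cells the 12 h libraries of this gene were widely spread, at 35.8, 69.8, 46.9 and 6.58 CPM, with replicate 4 the lowest. It gave the 16-fold range among elicited means noted above.

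The lowest difference at 48 h was that of Mal_HE_154X_1_chr007g008270, with 3 exons and 2017 exon bases on chromosome 7 (5952922 to 5955224, minus strand). Controls had 94.1 and 76.3 CPM at 6 h, 75.1 and 79.7 CPM at 24 h, and 26.8 and 50.7 CPM at 48 h. Elicited cells had 116, 123 and 127 CPM at 6 h, 73.8, 71.9, 58.1 and 56.5 CPM at 24 h, and 69, 72.7, 66.1 and 71.2 CPM at 48 h. It is the gene whose elicited libraries lay below both controls at 24 h. Both treatments fell from 6 to 48 h, by -1.35 log2 units in controls (SE 0.24, adjusted p = 2.7e-05) and -0.89 in elicited cells (SE 0.18, adjusted p = 0.000127, edgeR). The log2 fold change at 48 h was 1.05 (SE 0.22, adjusted p = 0.000193, edgeR), and without control 48 h replicate 1 it was 0.61 (adjusted p = 0.0323) and without replicate 2 1.70. At 24 h it was -0.02 (adjusted p = 0.963, edgeR), and the difference was not shown to grow from 6 to 48 h (adjusted p = 0.281, edgeR).

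The second lowest was Mal_HE_154X_1_chr011g008970, with 2 exons and 1271 exon bases on chromosome 11 (6943131 to 6945355, minus strand). Elicited cells had 15.4, 20.2 and 20.6 CPM at 6 h, 27.4, 25.6, 23.3 and 23.8 CPM at 24 h, and 26.7, 27.3, 24.8 and 27.1 CPM at 48 h. Controls had 21.9 and 24.2 CPM at 6 h, 16.8 and 15.3 CPM at 24 h, and 9.27 and 13.1 CPM at 48 h. At 6 h both controls were above all elicited libraries, and at 24 and 48 h both were below them. The log2 fold change went from -0.23 at 6 h (adjusted p = 0.509) to 0.87 at 24 h (SE 0.17) and 1.46 at 48 h (SE 0.18, adjusted p = 9.6e-08, edgeR), and the difference between 48 and 6 h was called (1.69, adjusted p = 4.79e-06, edgeR). Within elicited cells it rose from 6 to 48 h by 0.42 log2 units (SE 0.15, adjusted p = 0.0182), while controls fell by -1.27 (SE 0.20, adjusted p = 3.08e-06, edgeR). Its 72 h control libraries, used by the rule, fell to 2.80 and 3.85 CPM.

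**Figure D5:**
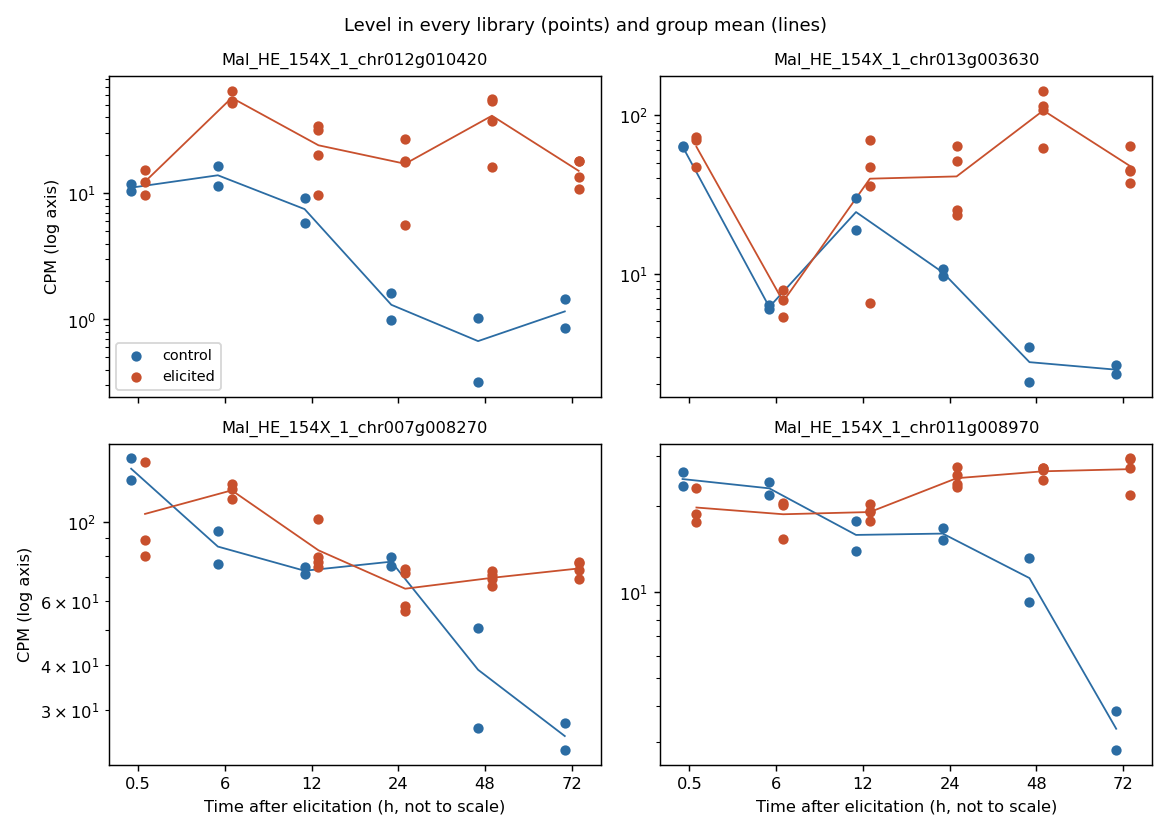
CPM (log axis) of the 4 genes in every library against time in hours (evenly spaced), with points for libraries and lines for group means, controls in blue and elicited cells in red. The upper pair has the highest differences at 48 h and the lower pair the lowest; at 48 h every elicited point lies above both control points in each panel.

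A few genes departed from the common course and were picked out after their values were seen. The only gene called lower in elicited cells at 6 h had 4 exons on chromosome 14 (4676294 to 4678330, plus strand). It rose in controls to 82.4 and 136 CPM at 6 h, from 17.4 and 14.8 CPM at 0.5 h, and fell to 5.99 and 5.81 CPM at 24 h. In elicited cells it had 13.3, 25.4 and 21.6 CPM at 6 h and 16.5, 14.2, 25.1 and 18.9 CPM at 24 h, with no such peak at 6 h, and the groups did not overlap at either time. The difference was -2.39 log2 units at 6 h (SE 0.29, adjusted p = 4.81e-06) and 1.88 at 24 h (SE 0.32, adjusted p = 3.35e-05, edgeR).

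The gene of 4 exons on chromosome 12 (1657941 to 1664833) went the other way at 6 h. Its controls had 43.3 and 51.3 CPM at 0.5 h, 7.56 and 5.65 CPM at 6 h, 39.1 and 51.5 CPM at 12 h and 18.9 and 17.4 CPM at 24 h, a dip and return within the course. Elicited cells had 15.4, 15.5 and 13.6 CPM at 6 h and 30.5, 22, 27.4 and 27.5 CPM at 12 h. It was 1 of 5 genes that were down by at least 2-fold at 6 h from their 0.5 h mean in both treatments. With a gene of 13 exons on chromosome 6 (20841801 to 20849000) it was also 1 of the 2 genes that rose in controls from 6 to 24 h, by 1.2 and 0.77 log2 units (adjusted p = 0.000596 and 0.0274, edgeR). For these 2 genes, the single-exon gene on chromosome 13 named above and Mal_HE_154X_1_chr013g003630 a fall from 6 to 48 h in controls was not called, with adjusted p-values of 0.577, 0.13, 0.18 and 0.0922 in this order (edgeR). The 3 genes not called higher at 24 h were the one on chromosome 12, Mal_HE_154X_1_chr007g008270 and a gene of 2 exons on chromosome 3 (5535434 to 5538692), with log2 fold changes of 0.40, -0.02 and 0.37.

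The 62 genes had few exons. Their median was 3 exons, against 6 among the 8182 genes that met the conditions at 0.5 and 12 h, and 13 of them (21%, Wilson 95% interval 12.7 to 32.6%) had a single exon against 9.34% of the 8182. Genes with 10 or more exons made up 9.68% (4.51 to 19.5%) of the 62 and 27.7% of the 8182. The 470 genes lost in both treatments had the same median of 3 exons, 26.4% with a single exon and 8.94% with 10 or more. Of the 28 genes that ended higher in elicited cells, also with a median of 3 exons, 2 (7.14%, 1.98 to 22.6%) had a single exon and 14.3% had 10 or more. The summed exon length of the 62 had a median of 1517 bases, with a range from 363 to 3547, against 1679 in the 8182 and 1296 in the 470.

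The 62 genes lay on all 14 chromosomes of the table, from 1 gene on chromosome 9 to 9 on chromosome 3. Chromosome 3 held 14.5% of the 62 and 5.3% of the 8182. It is named as the highest after the counts were seen, was not tested, and includes a pair sharing exon bases described below. Coordinates are those of the deposited table, whose genome build is not given in the sources used here. Few were neighbours: 3 pairs lay within 100000 bases of each other. A pair on chromosome 3 (21015575 to 21017716 and 21015604 to 21018928, both minus strand) and a pair on opposite strands of chromosome 10 (9389226 to 9391543 and 9390842 to 9391664) share exon bases, and their log2 CPM correlated over the 34 libraries with r of 1.000 and 0.998. Each such pair may count the same reads and give 1 measurement rather than 2. The third pair, of 5 exons each on the minus strand of chromosome 13 (13637127 to 13640883 and 13661504 to 13669010), lay 20621 bases apart with 2 genes between, and r was 0.945. In all 6 of the 62 genes share exon bases with another gene, and of the other 56, 53 were higher at 24 h and 56 at 48 h.

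Which genes were chosen depended on the scaling of the libraries. The rule applied to CPM from library sizes scaled by TMM (trimmed mean of M-values) chose 74 genes, of which 39 were among the 62. Of those 74 genes, 70 were higher in elicited cells at 24 h and 72 at 48 h, in the same fit, against 21.7% and 26.5% of all tested genes. In controls 70 of them fell from 6 to 48 h, against 31.7%. As for the 62 genes, these late differences follow in part from the choice. The TMM factors, by which library sizes were multiplied, were 1.14 and 1.13 in the 72 h controls and 1.02 to 1.05 in the 72 h elicited cells. At 0.5 h they were 0.936 and 0.897 in controls and 0.814 to 0.875 in elicited cells. In elicited cells the median TMM-scaled log2 level of the 62 genes, against the 6 h controls, averaged 0.375 at 0.5 h and -0.0004 at 72 h. How near the elicited levels ended to their start thus depended on the scaling.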

How the data were processed

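For each gene and each of 34 libraries the authors deposited a raw read count, a whole number that had not been normalized. Per the submitters' processing notes, fastp, STAR and featureCounts were used. Libraries were made with a stranded mRNA kit, per the labels' protocols. Tool versions, build, annotation and the strand setting in counting: not given in the sources used here. A pooled long-read sample was not analysed here. Columns were matched to samples by the labels' descriptions.

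CPM used column totals. Tests used R 4.3.3 and edgeR 4.0.16: filterByExpr (minimum count 10), TMM scaling and 1 quasi-likelihood model with a mean for each of 12 groups. Standard errors were the size of the log2 change divided by the root of the F statistic. Log2 CPM used a prior count of 2. Per-library intervals and ratios cover counting error only. Within groups the chi-square per degree of freedom between libraries was 2.79 to 94.7 over 36 pairs, so each library was counted as 1 replicate.

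The 62 genes, the lists and the tests were chosen with earlier results of these data known. Named genes follow a fixed rule, the 2 highest and 2 lowest differences at 48 h among called genes sharing no exon bases; others are given by position and were chosen after their values were seen. Alternatives were DESeq2 1.42.0, library-size scaling, no filter, fewer libraries, a replicate block and leaving out single libraries.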

Additional observations from a re-analysis of the deposited data

Results flagged for a closer look

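Elicited 12 h replicate 4 stood apart in the median log2 level of the 62 genes, at -0.23 against the 6 h controls, where the other 3 libraries of that group lay between 0.18 and 0.23. Elicited 72 h replicate 1 stood apart in their summed level, at 4070 CPM where the other 3 lay between 5320 and 5504 CPM. The check (Dixon's criterion) ran on 24 groups of values and passes about 5% of them by chance. Without the first library 47 in place of 45 genes changed over time in elicited cells, and without the second the rule chose 64 genes, 59 of them among the 62.

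The elicited minus control difference of 3 named genes differed between 48 and 6 h by an interaction test. The same call was made for 59 of the 62 genes, and the named genes were picked by their 48 h difference. The increase was 4.04 log2 units for Mal_HE_154X_1_chr012g010420 (adjusted p = 0.000706), 5.32 for Mal_HE_154X_1_chr013g003630 (adjusted p = 2.4e-05) and 1.69 for Mal_HE_154X_1_chr011g008970 (adjusted p = 4.79e-06, edgeR).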

How the results depend on the processing

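Counts of called genes among the 62 were within 1.5 times of the value reported under DESeq2, library-size scaling, no filter, only the 6 to 48 h libraries and the replicate block. The 9 genes called at 6 h became 14 (7.63% of all tested genes) without elicited 12 h replicate 4 and 72 h replicate 1, and 15 (8.37%) without 12 h replicate 4 and 48 h replicate 3. Both pairs were chosen after the values had been seen. Tighter and wider rules changed the number of genes chosen from 62 to 31 with a loss of at least 8-fold, 82 with a loss of at least 4-fold, and 29 or 104 with the elicited 72 h level within 1.25- or 2-fold.

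Leaving out 1 elicited library at a time gave 62 genes higher at 48 h, where 24.1 to 25.9% of all tested genes were higher. It gave 57 to 59 at 24 h (19.7 to 21.2% of all tested genes) and 8 to 10 called at 6 h (3.02 to 6.76%). In elicited cells 12 to 16 were lower at 48 h than at 6 h (25.5 to 28.1%) and 10 to 18 higher (26.4 to 28.9%). Over time 41 to 47 changed there (56.1 to 63.1%). The difference grew from 6 to 48 h for 58 to 59 genes (15.3 to 17.5%). Leaving out a control library left 1 in its group. Fewer of the 62 were then called at 6 h, higher at 24 h, or lower in controls at 24 h than at 6 h. With any 1 of the libraries it used left out, the rule chose 57 to 65 genes, of which at least 48 were among the 62.

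Same-numbered libraries of the 2 treatments had deviations correlating between -0.088 and 0.141 over 12 pairs, and those sharing a number in the deposited column names between -0.124 and 0.0746 over 10 pairs, so neither numbering met the criterion for pairing (every correlation above 0.1). With the replicate number as a block 62 genes were higher at 48 h (25.9% of all tested genes), 59 at 24 h (20.7%), and 11 were called at 6 h (6.02%). With the column numbers as the block, added after the values had been seen, these counts were 62, 58 and 9. The shares of all tested genes were then 26%, 21.1% and 5.26%.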
